A study of Mus musculus with 20 samples.

Results

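Transcripts of 9 genes of the growth hormone and thyroid hormone axes were followed in the livers of progeroid Ercc1Δ/- mice and wild type mice, each on a restricted or a control diet. The genes were Ghr, Jak2, Igf1, Igfals, Igfbp1, Igfbp2, Igfbp3, Igfbp4 and Dio1. Every probe set whose only annotated symbol was one of these names was taken, which gave 20 of the 45037 probe sets that were not controls. In the gene table, where each gene is represented by its probe set with the highest mean, they are 9 of 17097 genes.

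The 4 groups of 5 mice each were progeroid mice on restricted food, progeroid mice on the control diet, wild type mice on restricted food and wild type mice on the control diet. Progeroid mice carried 2 germline mutations of the repair gene Ercc1, the Δ allele and the - allele, and wild type mice were littermates. All mice were F1 hybrids of C57BL6J and FVB and ate AIN93G pellets, and livers were taken at 11 weeks of age. Restriction began at 7 weeks with 10% less food and reached 30% less at 9 weeks, and food was given just before the dark period. Restricted wild type mice received 2.1 g per day and unrestricted wild type mice ate 3.0 g per day, while the amounts for progeroid mice are not given by genotype. The hour of death and the sex are not in the labels. The Y-linked gene Eif2s3y lay between 9.57 and 10.19 on the log2 scale and Xist between 3.82 and 4.50 in all 20 arrays.

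Pituitary growth hormone acts on hepatocytes through its receptor Ghr, which signals through the kinase Jak2 and the transcription factor STAT5b. The liver answers by making IGF1, most of which circulates in a complex with IGFBP3 and the acid-labile subunit encoded by Igfals. IGFBP1 and IGFBP2 are binding proteins made by hepatocytes that are known to rise in fasting. Dio1 encodes the type 1 deiodinase, which removes iodine from thyroxine and from its inactive metabolites. Dio1 is itself a classical target of thyroid hormone in the liver.

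The values are deposited RMA values on the log2 scale, so a difference of 1 is a doubling. They cannot rank the level of one gene against another, because probe sets differ in their response. Changes were tested with limma over all genes, and changes with a Benjamini-Hochberg adjusted p under 0.05 are called rises or falls. Errors of log2 fold changes are standard errors (SE), errors of group levels are standard deviations (SD), and n = 5 animals per group throughout.

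The median of the 20 arrays lay between 4.17 and 4.21. Ercc1 was lower in progeroid than in wild type livers on the control diet (log2 fold change -1.24 ± 0.10 SE, limma adjusted p = 8.73e-08) and on restricted food (-1.35 ± 0.10, adjusted p = 1.50e-08), with no overlap between groups, which goes with the labels, although an Ercc1 probe set without a suffix in its name gave log2 fold changes of 0.0203 on the control diet and 0.0155 on restricted food (limma adjusted p = 0.905 and 0.919). The summed level of 9 hepatocyte markers lay between 16.62 and 16.73 in all 20 livers. Among markers of other liver cells, 8 of 10 Kupffer cell, 4 of 11 stellate cell and 2 of 5 neutrophil and monocyte genes were higher in progeroid than in wild type livers on restricted food. There 11.8% of all genes were higher. On the control diet these counts were 2 of 10, 4 of 11 and 2 of 5, beside 6.70% of all genes. On both diets 0 of 6 cholangiocyte and 0 of 7 T and B cell markers were higher. Among the neutrophil and monocyte genes S100a8 and S100a9 differed most on restricted food. Wild type S100a8 averaged below the array median, where a signal is not shown to be above background. On restricted food Csf3r (means 4.81 in progeroid and 4.74 in wild type livers), Cxcr2 (3.89 and 3.92) and Ccr2 (4.16 and 4.07) differed little. In such bulk samples, fewer cells of a type and less RNA per cell cannot be told apart. The Gapdh signal near the 3′ end exceeded that near the 5′ end by 0.93 ± 0.28 in progeroid livers and 0.66 ± 0.06 in wild type livers on the control diet (SD, log2; two-sided exact permutation p = 0.0476, adjusted p = 0.296 over 8 such comparisons), and the part of RNA integrity in the results was not tested.

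Ghr and Dio1 were the members that passed the test in all 4 pairwise comparisons, and both were lower each time. Restricted food lowered 3 of the 9 genes in progeroid livers (Ghr, Igfals and Dio1), where 5.07% of all genes fell and 6.94% rose (12.0% in either direction). In wild type livers restriction lowered 4 (Ghr, Igf1, Igfals and Dio1) and raised 2 (Igfbp1 and Igfbp2), where 12.6% of all genes fell and 9.92% rose (22.5% in either direction). The progeroid genotype lowered 2 on the control diet (Ghr and Dio1), where 4.32% of all genes were lower and 6.70% higher (11.0% in either direction). On restricted food it lowered the same 2 genes and raised Igfbp3, where 5.44% of all genes were lower and 11.8% higher (17.2% in either direction). None of the 9 passed for the difference between the diet effects of the genotypes, where 1.40% of all genes passed by limma and 1 member, Igfbp3, had an unadjusted p under 0.05. Of the 20 member probe sets 0 passed for that difference, beside 0.777% of all probe sets.

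Restricted progeroid livers were also set against wild type control livers, which differ in both genotype and diet. There 5 of the 9 genes passed (Ghr, Igf1, Igfals and Dio1 lower, Igfbp1 higher), beside 25.4% of all genes. Progeroid control livers against restricted wild type livers, which differ in both ways but crossed, gave 3 (Igfals and Igfbp3 higher, Igfbp2 lower), beside 27.9% of all genes. Of these the Igfals call was lost when any 1 of 7 animals was left out (progeroid control 323, 325, 326 and 327, restricted wild type 422, 423 and 424; log2 fold change 0.36 to 0.49, limma adjusted p 0.05005 to 0.108). The Igfbp3 call was lost when any 1 of 12 was left out (progeroid control 323, 325, 326 and 327, restricted progeroid 365, 368 and 369, restricted wild type 422, 424 and 425, wild type control 401 and 405; 0.30 to 0.44, adjusted p 0.0515 to 0.147).

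The median log2 fold change of the 9 genes with restriction was -0.11 in progeroid livers and -0.23 in wild type livers, beside -0.01 and -0.03 over all genes. For genotype it was -0.06 on the control diet and -0.05 on restricted food, beside -0.01 and -0.0026 over all genes. The 2 genotype comparisons and the 2 diet comparisons share groups and are not independent of each other. Genes whose groups did not overlap made up 9.35% of all genes for genotype on the control diet (3 members), 11.9% on restricted food (0 members), 8.97% for diet in progeroid livers (2 members) and 15.7% for diet in wild type livers (5 members).

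**Figure D1:**
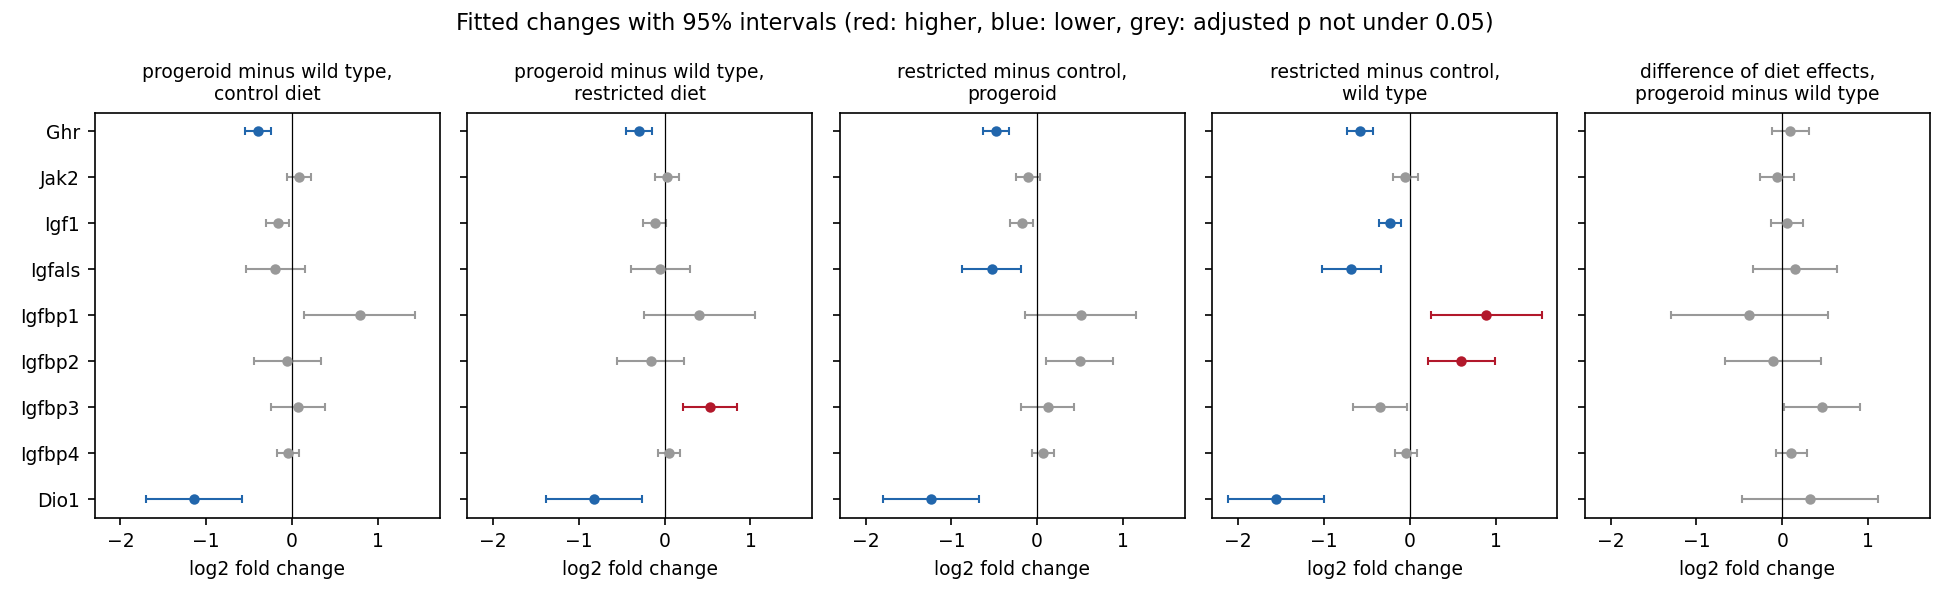
Fitted log2 fold changes (horizontal axes) of the 9 genes (rows) with 95% intervals in the 4 pairwise comparisons and in the difference of the diet effects, from all 20 arrays. Ghr and Dio1 lie left of 0 in the 4 pairwise panels and no gene is coloured in the last one.

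The receptor Ghr had values of 11.75, 11.75, 11.93, 11.96 and 11.97 in restricted progeroid livers. In progeroid livers on the control diet it had 12.24, 12.40, 12.39, 12.37 and 12.36. In restricted wild type livers the values were 12.42, 12.19, 11.96, 12.10 and 12.20, and in wild type livers on the control diet they were 12.75, 12.77, 12.70, 12.81 and 12.73. All wild type control livers lay above every other liver, and all restricted progeroid livers lay below every progeroid control liver. The restricted groups overlapped, since 1 wild type liver reached 11.96.

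Restriction lowered Ghr 1.40-fold in progeroid livers (log2 fold change -0.48 ± 0.07 SE, limma adjusted p = 0.000212) and 1.49-fold in wild type livers (-0.58 ± 0.07, adjusted p = 8.39e-06). The progeroid genotype lowered it 1.32-fold on the control diet (-0.40 ± 0.07, adjusted p = 0.000879) and 1.23-fold on restricted food (-0.30 ± 0.07, adjusted p = 0.00558). Its diet effects differed by 0.10 between genotypes with a 95% interval from -0.12 to 0.31 (adjusted p = 0.738). Restricted progeroid livers had 1.84-fold less Ghr than wild type control livers (-0.88 ± 0.07, adjusted p = 3.36e-08). Progeroid control livers and restricted wild type livers held the middle of the order, and their difference of 0.18 ± 0.07 did not pass (adjusted p = 0.0702). It did pass without restricted wild type animal 421 (0.24, adjusted p = 0.0103) or without progeroid control animal 321 (0.21, adjusted p = 0.0492).

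Ghr has 3 probe sets, and each passed in all 4 pairwise comparisons when all probe sets were tested. They read the RNA of 1 gene and are no replicates. Of the 20 member probe sets 4 passed for genotype on the control diet, beside 6.94% of all probe sets. For genotype on restricted food 4 passed, beside 11.5%. For diet 4 passed in progeroid livers, beside 8.25%, and 11 in wild type livers, beside 19.0%. Probe set 1451501_PM_a_at gave changes close to those of the representative probe set 1417962_PM_s_at, with a restriction effect of -0.49 in progeroid and -0.61 in wild type livers. Probe set 1451871_PM_a_at changed more against the wild type control group. It averaged 7.14 ± 0.11 in restricted progeroid livers, 7.72 ± 0.18 in progeroid control livers, 7.49 ± 0.30 in restricted wild type livers and 8.54 ± 0.06 in wild type control livers (SD, n = 5 each). Its signal fell 2.07-fold with restriction in wild type livers (-1.05 ± 0.11 SE, limma adjusted p = 2.10e-06) and 1.77-fold with the progeroid genotype on the control diet (-0.82 ± 0.11, adjusted p = 8.16e-05). With restriction in progeroid livers it changed by -0.58 ± 0.11. At this probe set the diet effects differed by 0.47 between genotypes (95% interval 0.14 to 0.80). That difference had a limma unadjusted p of 0.00747 and did not pass (adjusted p = 0.184). Both probe sets followed the representative one over the 20 arrays with Pearson r of 0.96, as a description of arrays that fall into 4 groups.

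**Figure D2:**
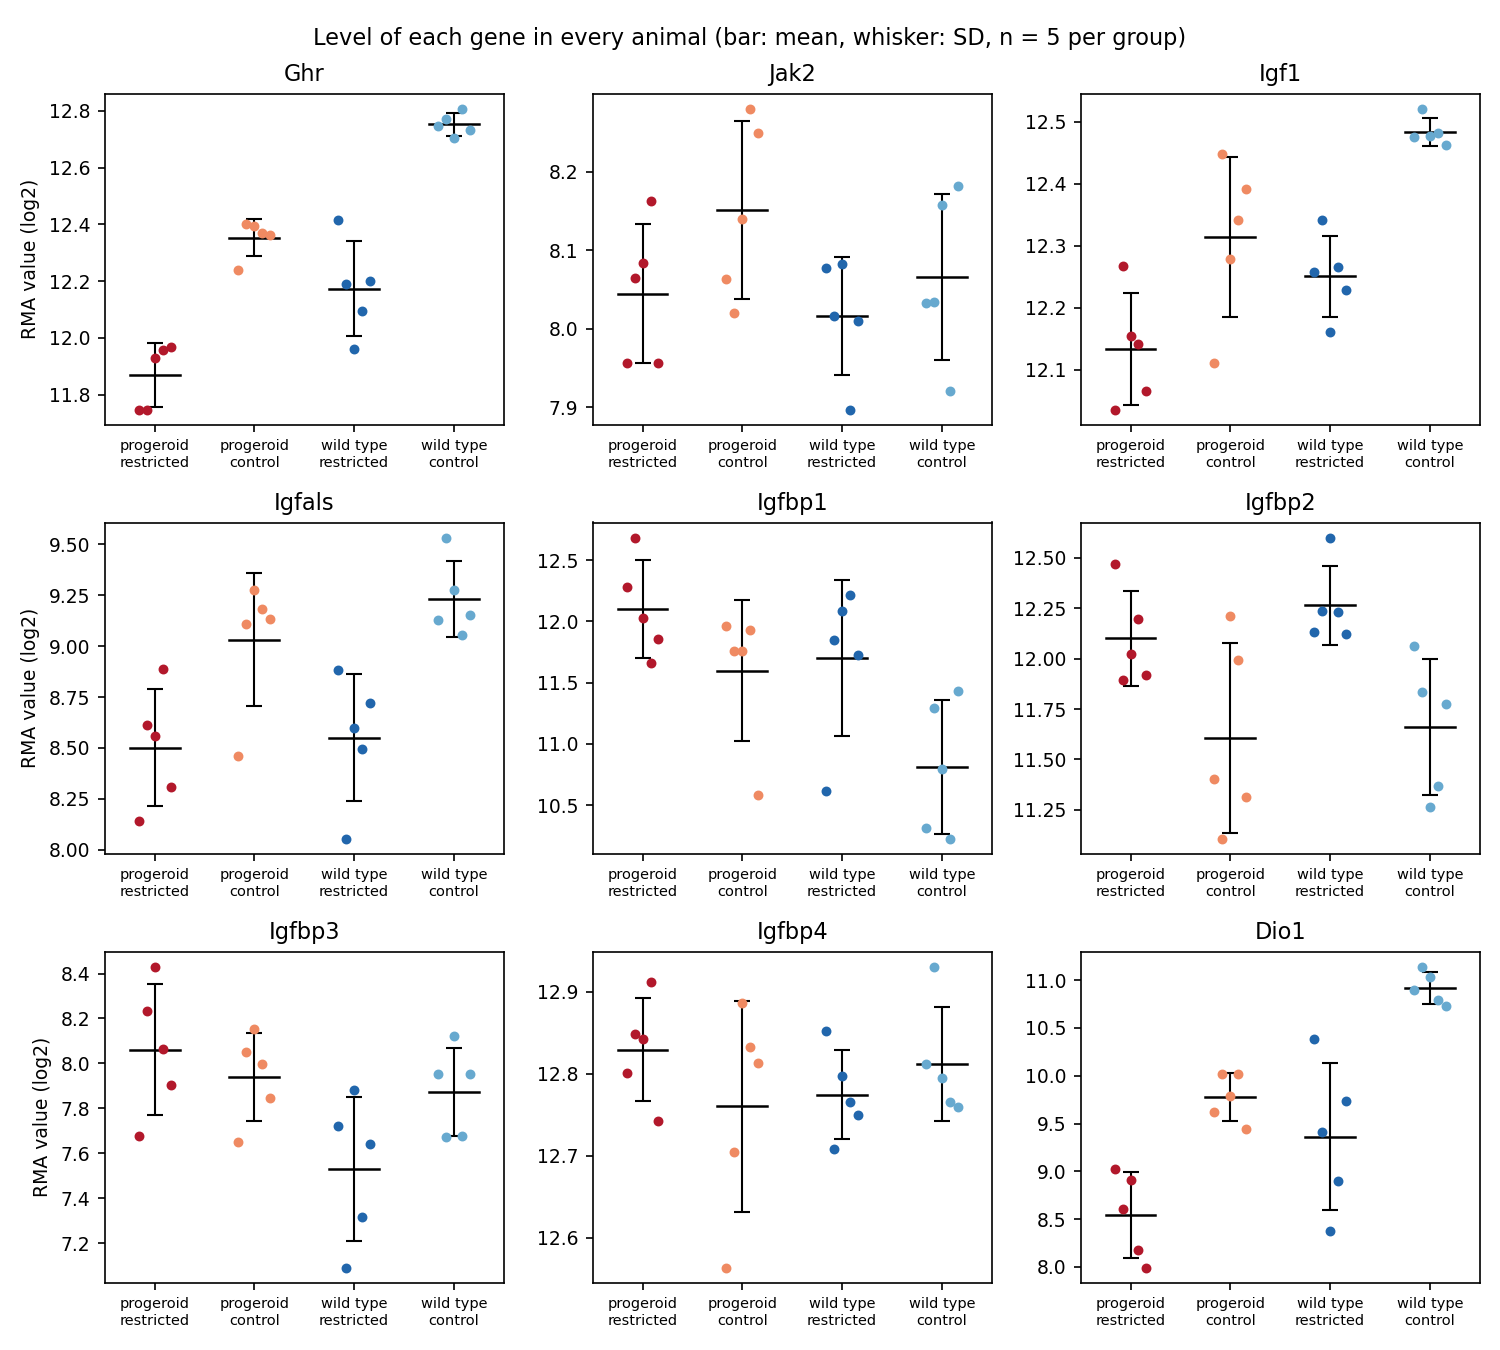
RMA value (log2, vertical axes, each with its own range) of the 9 genes in every liver, with the 4 groups on the horizontal axes. Points are animals, bars are group means and whiskers are SD (n = 5 per group). At the representative probe sets shown, the wild type control livers stand above the other groups for Ghr, Igf1 and Dio1.

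Jak2, the kinase bound to the growth hormone receptor, did not pass in any comparison. Its group means were 8.04 ± 0.09 in restricted progeroid, 8.15 ± 0.11 in progeroid control, 8.02 ± 0.07 in restricted wild type and 8.07 ± 0.11 in wild type control livers (SD, n = 5 each). The 95% interval of the diet effect ran from -0.25 to 0.03 in progeroid livers and from -0.19 to 0.09 in wild type livers. The second probe set, 1421065_PM_at, pointed the other way with restriction, by 0.24 ± 0.09 SE in progeroid livers (limma adjusted p = 0.113) and 0.22 ± 0.09 in wild type livers (adjusted p = 0.0888). The 2 probe sets had Pearson r of -0.13 over the 20 arrays.

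Igf1, the hormone itself, had values of 12.04, 12.27, 12.15, 12.14 and 12.07 in restricted progeroid livers. Progeroid control livers gave 12.11, 12.45, 12.28, 12.34 and 12.39. Restricted wild type livers gave 12.26, 12.34, 12.16, 12.27 and 12.23, while wild type control livers gave 12.47, 12.52, 12.48, 12.48 and 12.46. At this representative probe set the wild type control livers were again above every other liver. At the other 3 Igf1 probe sets they overlapped the progeroid control livers. Igf1 fell 1.17-fold with restriction in wild type livers (log2 fold change -0.23 ± 0.06 SE, limma adjusted p = 0.0105). The corresponding change in progeroid livers was -0.18 ± 0.06 and missed the threshold (adjusted p = 0.0675). It passed without progeroid control animal 321 (-0.23, adjusted p = 0.0167) or restricted progeroid animal 365 (-0.21, adjusted p = 0.0414). The other 3 Igf1 probe sets gave smaller changes there, of -0.10, -0.12 and -0.13, with adjusted p-values over all probe sets of 0.595, 0.512 and 0.499.

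The genotype differences of Igf1 did not pass, at -0.17 ± 0.06 on the control diet (adjusted p = 0.0906) and -0.12 ± 0.06 on restricted food (adjusted p = 0.222). Restricted progeroid livers had 1.27-fold less Igf1 than wild type control livers (-0.35 ± 0.06, adjusted p = 0.000332). When suffixed probe sets were left out, so that 1437401_PM_at stood for Igf1, this difference was -0.15 and did not pass (adjusted p = 0.248), while that between progeroid control and restricted wild type livers was 0.25 and did (adjusted p = 0.0476). With the representative probe set the difference of progeroid control from restricted wild type livers was 0.06 ± 0.06 (adjusted p = 0.516).

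All 4 Igf1 probe sets fell with restriction in wild type livers, by -0.23, -0.30, -0.39 and -0.30 on the log2 scale (11 of the 20 member probe sets passed there, where 19.0% of all probe sets did). Their adjusted p-values over all probe sets were 0.0124, 0.0231, 0.00433 and 0.0356. On restricted food they disagreed about genotype. The representative probe set 1452014_PM_a_at was lower in progeroid than in wild type livers by 0.12, and the other 3 were higher by 0.15, 0.19 and 0.05, none of them past the threshold. At 1434413_PM_at the diet effects differed by 0.28 between genotypes, with a limma unadjusted p of 0.0440 and an adjusted p of 0.352.

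**Figure D3:**
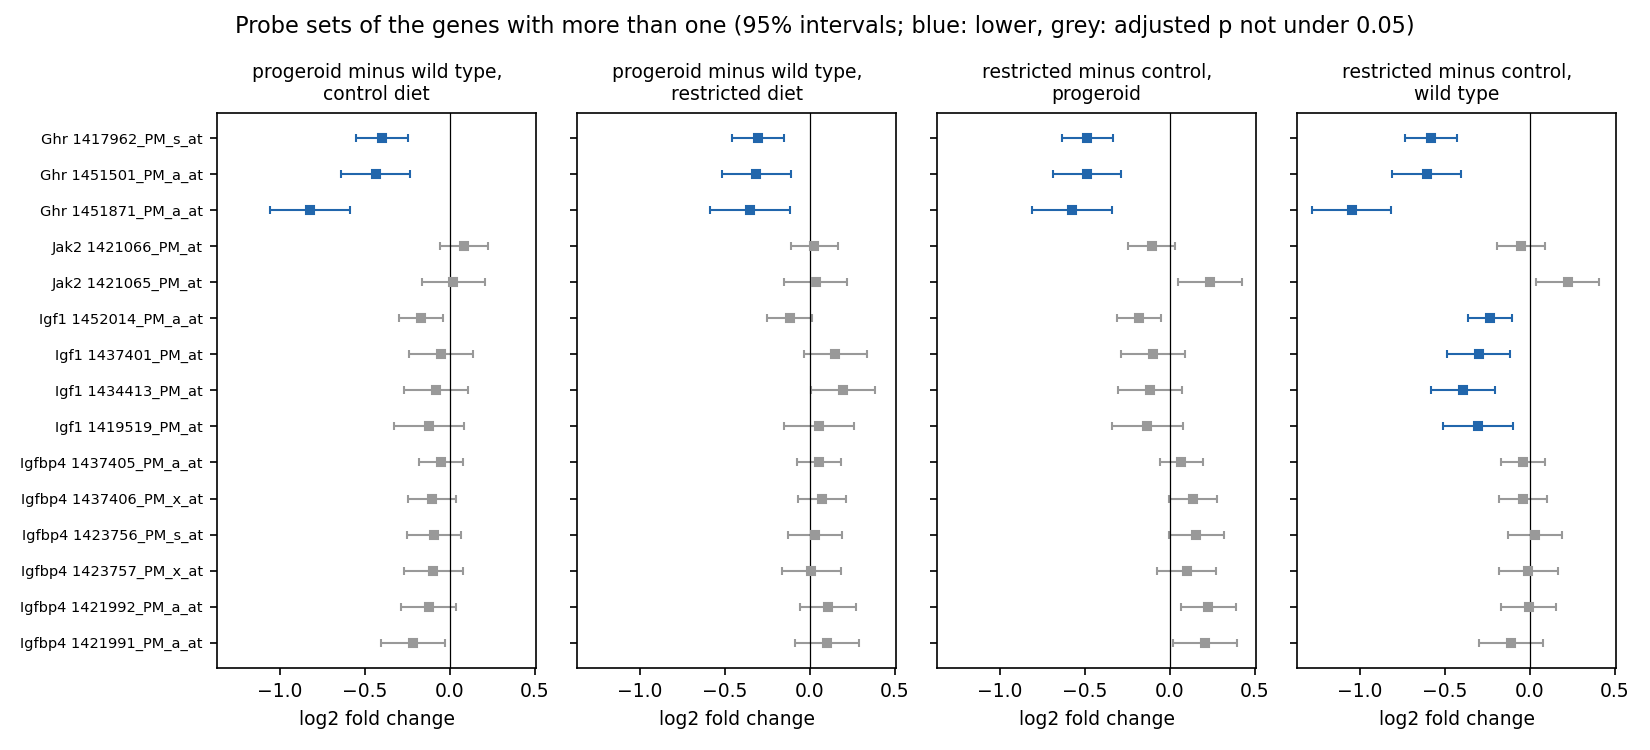
Log2 fold changes (horizontal axes) with 95% intervals of the 15 probe sets of Ghr, Jak2, Igf1 and Igfbp4 (rows) in the 4 pairwise comparisons, tested over all probe sets. The 3 Ghr probe sets are blue in each panel, the 4 Igf1 probe sets in the wild type diet panel alone, and no Jak2 or Igfbp4 probe set is coloured.

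Igfals encodes the acid-labile subunit, which holds IGF1 and IGFBP3 in the large circulating complex. It had values of 8.14, 8.61, 8.56, 8.89 and 8.31 in restricted progeroid livers, against 8.46, 9.11, 9.28, 9.18 and 9.13 in progeroid control livers. The restricted wild type group had 8.88, 8.05, 8.60, 8.49 and 8.72, against 9.13, 9.53, 9.27, 9.06 and 9.15 in wild type control livers. The wild type groups did not overlap, and the progeroid groups overlapped through control animal 321 at 8.46.

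Igfals fell 1.44-fold with restriction in progeroid livers (log2 fold change -0.53 ± 0.16 SE, limma adjusted p = 0.0404) and 1.60-fold in wild type livers (-0.68 ± 0.16, adjusted p = 0.00498). The progeroid call was lost when any 1 of 8 animals was left out (control animals 323, 325, 326 and 327 and restricted animals 362, 365, 366 and 369; log2 fold change -0.56 to -0.44, adjusted p 0.0555 to 0.110). Genotype gave -0.20 ± 0.16 on the control diet (95% interval -0.54 to 0.15) and -0.05 ± 0.16 on restricted food (-0.39 to 0.29), and neither passed. The diet effects differed by 0.15 with an interval from -0.34 to 0.64.

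In rodents, growth hormone induces Igfals through a STAT5 element near its start site. Of the 13 RefSeq promoter windows of the 9 genes (250 bases before to 50 after each listed start), 2 held TTCNNNGAA on either strand, and both belong to Igfals. Among all 32851 windows of the table, 8.3% held these letters. The match nearest a start site begins 58 bases before it. It is shown because Igfals fell with restriction, with the capitals marking the match in the 150 bases before the second listed start (GRCm38.p6, chr17:24878081-24878230, plus strand, sequence from RefSeq).
Igfals: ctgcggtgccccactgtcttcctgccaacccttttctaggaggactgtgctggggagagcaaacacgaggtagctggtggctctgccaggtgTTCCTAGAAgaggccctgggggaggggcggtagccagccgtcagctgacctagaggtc
A match describes the letters only, and no binding was measured.

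Igfbp3, the main carrier of IGF1 in serum, showed another pattern. In the rat liver it is made mainly by non-parenchymal cells. It had values of 7.68, 8.23, 8.43, 8.06 and 7.90 in restricted progeroid livers and 7.65, 8.05, 8.15, 7.996 and 7.84 in progeroid control livers. Restricted wild type livers gave 7.72, 7.09, 7.88, 7.32 and 7.64, and wild type control livers gave 7.95, 7.67, 8.12, 7.68 and 7.95. Restricted wild type livers had the lowest mean, and all 4 groups overlapped.

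On restricted food Igfbp3 was 1.44-fold higher in progeroid than in wild type livers (log2 fold change 0.53 ± 0.15 SE, limma adjusted p = 0.0174). This call was lost without restricted progeroid animal 366 (0.44, adjusted p = 0.0597) or restricted wild type animal 422 (0.42, adjusted p = 0.0552) or 424 (0.48, adjusted p = 0.0508). On the control diet the genotypes differed by 0.07 ± 0.15. Restriction gave 0.12 ± 0.15 in progeroid livers and -0.34 ± 0.15 in wild type livers (adjusted p = 0.111). The difference of these diet effects, 0.47 ± 0.21, had an unadjusted p of 0.0401 and an adjusted p of 0.318. Of 10 Kupffer cell markers 8 were higher in restricted progeroid than in restricted wild type livers, with summed levels of 12.21 to 13.03 and 11.56 to 12.11. Of 9 sinusoidal endothelial markers 1 was higher in the same comparison, where 11.8% of all genes were higher. On the control diet the Kupffer cell markers had a median genotype difference of 0.38, where Igfbp3 differed by 0.07. With restriction their median change was -0.13 in progeroid livers, where Igfbp3 changed by 0.12, and -0.43 in wild type livers. The part of other cell types in the Igfbp3 difference was not tested.

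Igfbp1, a binding protein that insulin represses in hepatocytes, had values of 12.28, 12.68, 12.03, 11.66 and 11.86 in restricted progeroid livers, against 11.96, 11.76, 11.76, 11.93 and 10.58 in progeroid control livers. Wild type livers had 10.62, 11.85, 12.08, 12.22 and 11.73 on restricted food, against 10.31, 11.29, 10.79, 10.23 and 11.43 on the control diet. Single animals stood far from their group: progeroid control animal 327 at 10.58 and restricted wild type animal 421 at 10.62. Every restricted progeroid liver was above every wild type control liver.

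Igfbp1 rose 1.85-fold with restriction in wild type livers (log2 fold change 0.89 ± 0.31 SE, limma adjusted p = 0.0437), although the groups overlapped. This call was lost when any 1 of 10 animals was left out (wild type control animals 401, 403 and 404, restricted wild type animals 422 to 425, restricted progeroid animals 366 and 369 and progeroid control animal 323), with a log2 fold change of 0.74 to 0.89 and an adjusted p of 0.0501 to 0.118. In progeroid livers restriction gave 0.51 ± 0.31 (95% interval -0.14 to 1.15, adjusted p = 0.333). Progeroid livers on the control diet had 0.79 ± 0.31 more than wild type livers, which did not pass (adjusted p = 0.115) but did so without progeroid control animal 327 (1.04, adjusted p = 0.0259). Restricted progeroid livers had 2.45-fold more Igfbp1 than wild type control livers (1.29 ± 0.31, adjusted p = 0.00419).

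The element through which insulin and forkhead factors act on the Igfbp1 promoter holds CAAAACA and its near mirror image. CAAAACA was present on either strand in 1 of the 13 member windows, that of Igfbp1, and in 6.28% of all windows. It begins 108 bases before the start site. The 150 bases before that site are shown because Igfbp1 rose with restriction, with the whole element in capitals (GRCm38.p6, chr11:7197637-7197786, plus strand, sequence from RefSeq).
Igfbp1: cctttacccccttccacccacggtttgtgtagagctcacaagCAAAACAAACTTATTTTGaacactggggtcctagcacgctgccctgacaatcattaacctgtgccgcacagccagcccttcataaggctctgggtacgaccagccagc
The nuclear receptor hexamer AGGTCA was found in 3 of the 13 windows (1 of Igf1 and 2 of Igfals) and in 16.3% of all windows, and these letters were not in the Dio1 window.

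Igfbp2, the other binding protein known to rise in fasting, had values of 12.47, 11.89, 12.03, 12.19 and 11.92 in restricted progeroid livers, against 11.40, 11.11, 12.21, 11.99 and 11.31 in progeroid control livers. Restricted wild type livers gave 12.13, 12.24, 12.60, 12.23 and 12.12, against 12.06, 11.84, 11.27, 11.37 and 11.77 in wild type control livers. The wild type groups did not overlap, and 2 progeroid control livers reached the level of the restricted ones. Restriction raised Igfbp2 1.52-fold in wild type livers (log2 fold change 0.60 ± 0.19 SE, limma adjusted p = 0.0253).

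That call was lost without wild type control animal 403 (0.50, adjusted p = 0.0748) or 404 (0.53, adjusted p = 0.0691) or restricted wild type animal 423 (0.52, adjusted p = 0.0744). In progeroid livers the change was 0.49 ± 0.19 (95% interval 0.10 to 0.89, adjusted p = 0.0983), and it passed without progeroid control animal 325 (0.65, adjusted p = 0.0231). Genotype gave -0.06 ± 0.19 on the control diet and -0.16 ± 0.19 on restricted food. Progeroid control livers had 1.58-fold less Igfbp2 than restricted wild type livers (-0.66 ± 0.19, adjusted p = 0.0120).

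Igfbp4, a further hepatic binding protein, did not pass in any of its 6 probe sets. Its representative probe set lay between 12.74 and 12.91 in restricted progeroid, 12.56 and 12.89 in progeroid control, 12.71 and 12.85 in restricted wild type and 12.76 and 12.93 in wild type control livers. The 95% intervals of its 4 pairwise changes lay between -0.18 and 0.20 on the log2 scale. The other 5 probe sets followed it with Pearson r of 0.75 to 0.93 over the 20 arrays. The smallest adjusted p of any Igfbp4 probe set was 0.0792, for a change of 0.23 ± 0.08 with restriction in progeroid livers at 1421992_PM_a_at.

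Dio1, the type 1 deiodinase, changed by the largest folds of the 9 genes in the diet comparisons. It had values of 9.02, 8.61, 8.91, 8.18 and 7.99 in restricted progeroid livers, against 9.62, 10.02, 9.79, 10.02 and 9.44 in progeroid control livers. Restricted wild type livers gave 10.38, 9.41, 8.38, 8.90 and 9.74, against 10.90, 11.14, 11.03, 10.80 and 10.74 in wild type control livers. Wild type control livers lay above all 15 others. The restricted wild type livers were the most spread, and they overlapped both progeroid groups.

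Restriction lowered Dio1 2.36-fold in progeroid livers (log2 fold change -1.24 ± 0.27 SE, limma adjusted p = 0.00443) and 2.95-fold in wild type livers (-1.56 ± 0.27, adjusted p = 0.000251), with no overlap in either genotype. The diet effects differed by 0.32 with a 95% interval from -0.46 to 1.11 (adjusted p = 0.758). On the control diet progeroid livers had 2.21-fold less Dio1 than wild type livers (-1.14 ± 0.27, adjusted p = 0.00715), and all 5 lay below all 5. On restricted food they had 1.77-fold less (-0.82 ± 0.27, adjusted p = 0.0387), and here the groups overlapped. That last call was lost when any 1 of 6 animals was left out (restricted progeroid animals 365, 368 and 369 and restricted wild type animals 421, 422 and 425), with a log2 fold change of -0.84 to -0.56 and an adjusted p of 0.0586 to 0.109.

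Restricted progeroid livers had 5.21-fold less Dio1 than wild type control livers (-2.38 ± 0.27, adjusted p = 1.76e-06). Progeroid control and restricted wild type livers did not differ beyond their spread (0.42 ± 0.27, adjusted p = 0.280), except when restricted wild type animal 421 was left out (0.67, adjusted p = 0.0367). The order of Dio1 levels was the order found for Ghr, with wild type control highest, restricted progeroid lowest and the other groups between them.

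Over the 20 livers Ghr and Dio1 followed each other with Pearson r of 0.92 (Spearman 0.91). After the mean of each group was subtracted, r was 0.49. Without the 2 livers whose Ghr then lay farthest from the median it was -0.16, so the value within groups depends on those livers. Ghr and Igf1 had r of 0.86 over all livers and 0.28 within groups. Ghr and Igfbp1 ran opposite, with r of -0.79 over all livers, -0.64 within groups and -0.49 without the same 2 livers. Igfals and Igfbp4 had r of 0.46 over all livers but 0.84 within groups, and 0.77 without the 2 livers farthest in Igfals. Restricted wild type animal 421 had the highest Ghr (12.42) and Dio1 (10.38) and the lowest Igfbp1 (10.62) of its group. These are descriptions of 36 pairs of genes measured on the same arrays, which share RNA quality and normalization.

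**Figure D4:**
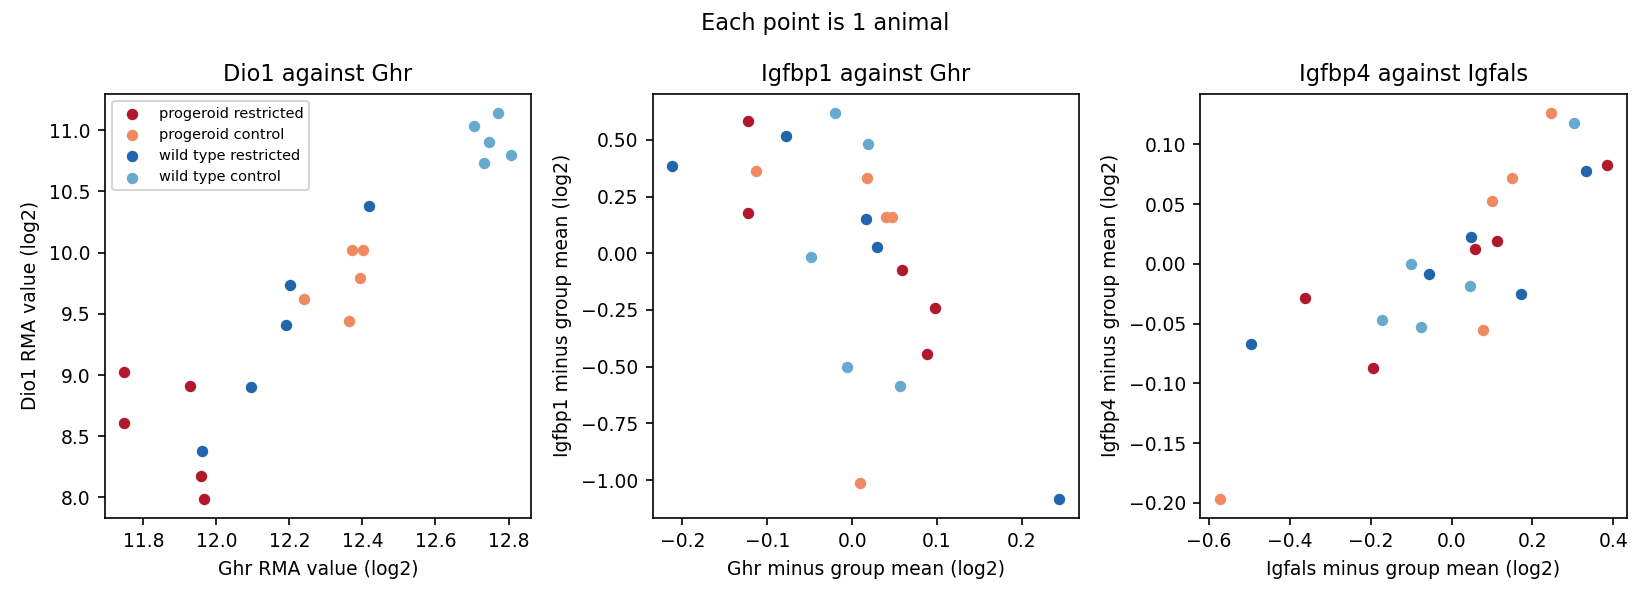
Dio1 against Ghr (RMA value, log2), and Igfbp1 against Ghr and Igfbp4 against Igfals after each group's mean was subtracted (log2 difference), with 1 point per animal coloured by group. The groups line up along the Ghr and Dio1 diagonal, Igfbp1 slopes down against Ghr, and Igfbp4 slopes up against Igfals within groups.

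Of 7326 other genes with a mean of at least 6, those whose pattern over the 20 livers was most like that of Ghr were Ugt3a1 (Pearson r 0.96, within groups 0.61) and Dock8 (0.94, within groups 0.68). The same 2 genes came first for Dio1, with 0.92 for Dock8 (within groups 0.68) and 0.90 for Ugt3a1 (within groups 0.34). Igf1 was most like Serpina4-ps1 (0.89, within groups 0.58) and Ugt3a1 (0.86, within groups 0.33). Igfals was most like Tmem35b (0.93) and Tbc1d9b (0.92), and both kept 0.88 and 0.85 within groups. Igfbp1 was most like Ctsl (0.83), Igfbp2 like Gpld1 and the angiotensinogen gene Agt (both 0.86), Igfbp3 like Nudt16l1 (0.86), Igfbp4 like Lclat1 (0.84) and Jak2 like Reln (0.74). Within groups these 6 had r of 0.66 to 0.89.

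Among 11 other measured genes of growth hormone receptor signalling, restriction lowered 1 in progeroid and 3 in wild type livers and raised none, with median changes of -0.17 in both genotypes. Over all genes 5.07% fell in progeroid and 12.6% in wild type livers. The 1 in progeroid livers was Irs1, a docking protein of the insulin and IGF1 receptors (log2 fold change -0.55 ± 0.16 SE, limma adjusted p = 0.0290). Irs1 was also among the 3 lowered in wild type livers, at 8.30 ± 0.30 on restricted food against 8.85 ± 0.33 on the control diet (SD). That wild type call was not checked in the alternative fits. The progeroid call of Irs1 was lost when any 1 of 7 animals was left out (progeroid control 321, 323, 325 and 326, restricted progeroid 362, 365 and 369, adjusted p 0.0503 to 0.0781). Grb2, an adaptor that links receptors to Ras, fell 1.40-fold with restriction in wild type livers (log2 fold change -0.49 ± 0.09 SE, limma adjusted p = 0.000625), or by 0.26 on the log2 scale with the mean of its probe sets (adjusted p = 0.0205). Ptpn6, a phosphatase known for damping Jak2 signals in blood cells, fell 1.50-fold there (-0.58 ± 0.12, adjusted p = 0.00176). In the same comparison restriction lowered 3 of 10 Kupffer cell markers and 2 of 7 T and B cell markers, beside 12.6% of all genes. The Kupffer cell markers had a median change of -0.43, with summed levels of 11.56 to 12.11 in restricted and 12.05 to 12.43 in control livers. The T and B cell markers had a median change of -0.13, with summed levels of 6.90 to 6.97 in restricted and 6.98 to 7.18 in control livers. Group means of the T and B cell markers were 3.27 to 4.82, around the array median (4.17 to 4.21). There a signal is not shown to be above background. For genotype on restricted food 0 of these 7 passed. On restricted food Ptpn6 was 1.63-fold higher in progeroid than in wild type livers (0.71 ± 0.12, adjusted p = 0.000452), where the Kupffer cell markers given above were also higher. The part of blood-derived cells in the Ptpn6 changes was not tested. For genotype 1 of the 11 was higher on the control diet (Src) and 1 on restricted food (Ptpn6), beside 6.70% and 11.8% of all genes. Src averaged 4.11 in progeroid and 3.85 in wild type livers on the control diet (limma adjusted p = 0.0347), near or below the array median.

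Of 6 feedback inhibitors of the receptor, restriction raised 1 in progeroid livers and 2 in wild type livers, with median changes of 0.13 and 0.39, where 6.94% and 9.92% of all genes rose. Sh2b3, an adaptor that restrains Jak2, rose 1.47-fold in progeroid (0.56 ± 0.12 SE, limma adjusted p = 0.00520) and 1.73-fold in wild type livers (0.79 ± 0.12, adjusted p = 0.000100). With the mean of its probe sets these changes were 0.35 (adjusted p = 0.0316) and 0.41 (adjusted p = 0.00655). Socs2, which growth hormone induces through STAT5b and which then restrains the receptor, rose 5.10-fold in wild type livers (2.35 ± 0.62, adjusted p = 0.00915). With the mean of its probe sets the change was 1.29 on the log2 scale (adjusted p = 0.0126). The Socs2 values there were 9.42, 10.62, 10.24, 9.82 and 9.51 in restricted livers, against 8.54, 8.08, 8.80, 5.90 and 6.54 in control livers, with no overlap. In progeroid livers Socs2 lay between 9.55 and 11.25 on restricted food and between 7.24 and 11.06 on the control diet, and the change of 0.97 ± 0.62 did not pass (adjusted p = 0.358). The difference between its diet effects did not pass either (-1.38 ± 0.88, adjusted p = 0.510). In wild type livers Socs2 rose with restriction while Igf1 and Igfals, also known targets of growth hormone, fell. For genotype 1 of the 6 was higher on each diet, beside 6.70% of all genes on the control diet and 11.8% on restricted food. These were Sh2b3 on the control diet (0.41 ± 0.12, adjusted p = 0.0338) and Socs3 on restricted food (1.37 ± 0.44, adjusted p = 0.0348). Each of these 2 calls was lost in 7 of 28 alternative fits.

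Of 13 other measured genes of the IGF system, restriction raised 1 in progeroid livers, and raised 1 and lowered 1 in wild type livers, with median changes of -0.14 and -0.04. These counts stand beside 12.0% of all genes called in progeroid and 22.5% in wild type livers, in either direction. The gene that rose in both was Igf1r, the IGF1 receptor, by 0.43 ± 0.12 in progeroid livers (limma adjusted p = 0.0228) and 0.37 ± 0.12 in wild type livers (adjusted p = 0.0298). These calls were lost when any 1 of 3 animals (progeroid control 321 and 326 and restricted progeroid 368, adjusted p 0.0548 to 0.0600) or any 1 of 5 animals (wild type control 401, 402 and 404 and restricted wild type 423 and 424, adjusted p 0.0556 to 0.0959) was left out. With the mean of all Igf1r probe sets the change in progeroid livers was 0.12 and did not pass (adjusted p = 0.293), and that in wild type livers was 0.21 (adjusted p = 0.0318). With the arrays of the compared groups alone the wild type change did not pass (adjusted p = 0.0607). Fgf21, a fasting hormone of the liver that was listed here for its known opposition to growth hormone signalling, was lower in restricted than in control wild type livers (adjusted p = 0.00243). Its values were 4.12 to 4.55 in restricted and 5.03 to 6.23 in control livers, and since the restricted values lie near the array median, no exact fold is given. For genotype 0 of the 13 passed on the control diet. On restricted food Igf2bp3 was higher (means 3.57 and 3.29, adjusted p = 0.0191) and Pappa lower (3.23 and 3.44, adjusted p = 0.0242) in progeroid than in wild type livers. Both lay below the array median. There 11.8% of all genes were higher and 5.44% lower.

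Of 9 measured genes other than Dio1 that transport, bind or modify thyroid hormone, restriction raised 4 and lowered 2 in progeroid livers, and raised 6 and lowered 1 in wild type livers. Their median changes were 0.28 and 0.46. Over all genes 6.94% rose and 5.07% fell in progeroid livers, and 9.92% rose and 12.6% fell in wild type livers. The progeroid genotype raised 2 of the 9 on the control diet, and raised 1 and lowered 3 on restricted food, beside 6.70% of all genes higher on the control diet and 11.8% higher and 5.44% lower on restricted food. The 2 raised on the control diet were Slco1c1 (limma adjusted p = 0.00144) and Sult1a1. Slco1c1 averaged 4.06 in progeroid and 3.33 in wild type livers, below the array median (4.17 to 4.21). There a signal is not shown to be above background. Sult1a1 was 1.14-fold higher (0.19 ± 0.06 SE, limma adjusted p = 0.0413), a call lost in 12 of 27 alternative fits. Slco1a4, an organic anion transporter that carries thyroid hormone, rose 3.95-fold in progeroid (1.98 ± 0.21 SE, limma adjusted p = 6.43e-06) and 5.70-fold in wild type livers (2.51 ± 0.21, adjusted p = 7.31e-08). Slco1a1, a related transporter that is male-biased in the mouse liver, fell 2.38-fold in progeroid (-1.25 ± 0.16, adjusted p = 5.01e-05) and 3.81-fold in wild type livers (-1.93 ± 0.16, adjusted p = 7.17e-08). Neither transporter overlapped between diets in either genotype. Slc10a1, the bile acid transporter that also takes up thyroid hormones, was 1.33-fold lower in progeroid than in wild type livers on restricted food (-0.41 ± 0.06, adjusted p = 0.000135).

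Crym encodes a cytosolic protein that binds triiodothyronine. It had values of 5.00, 4.49, 4.42, 4.54 and 4.42 in restricted progeroid livers, against 5.23, 5.57, 5.62, 5.84 and 5.54 in restricted wild type livers. On the control diet its means were 4.20 in progeroid and 4.27 in wild type livers, near the median of the arrays (4.17 to 4.21), where a signal is not shown to be above background. Restricted progeroid livers were 1.98-fold lower than restricted wild type livers (-0.99 ± 0.13 SE, limma adjusted p = 3.05e-05). The diet effect itself was smaller in progeroid than in wild type livers by 0.91 ± 0.19 on the log2 scale (adjusted p = 0.0201), and among the listed genes of hormone transport, binding and modification it was the only one to pass for that difference.

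**Figure D5:**
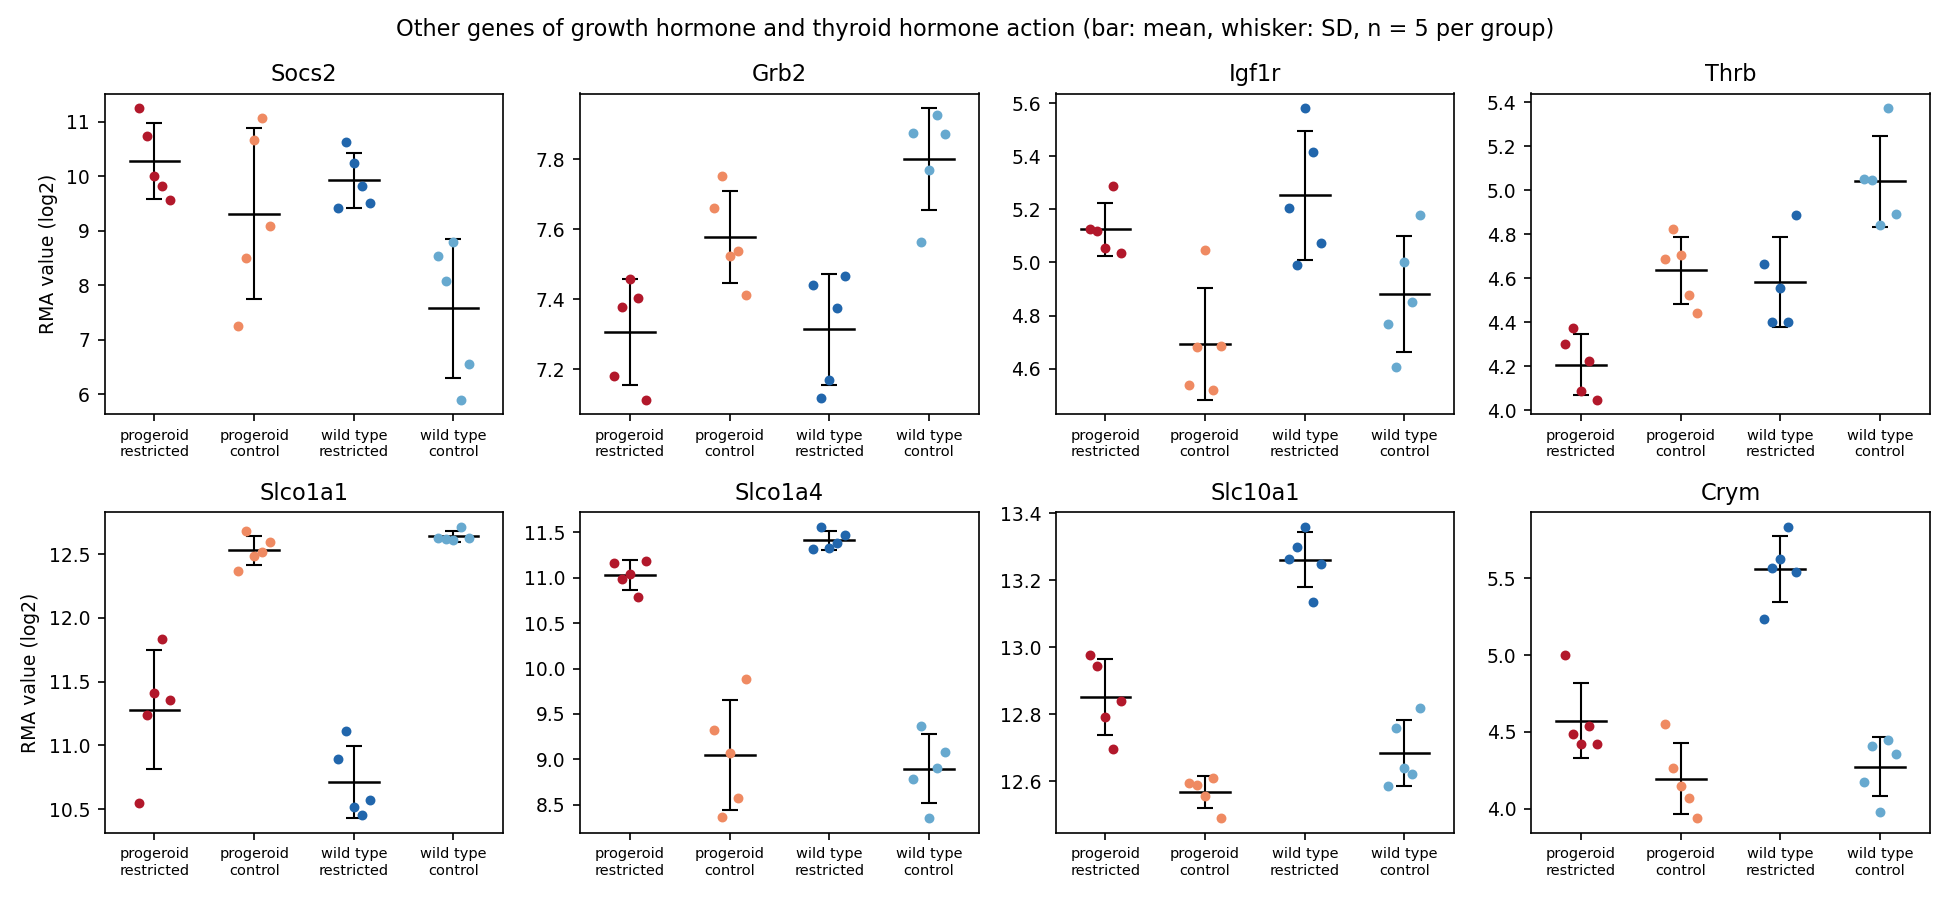
RMA value (log2, vertical axes, each with its own range) of 8 other genes of growth hormone and thyroid hormone action in every liver, by group. Points are animals, bars are means and whiskers are SD (n = 5 per group). Restricted and control livers separate in both genotypes for Slco1a1 and Slco1a4, and restricted wild type livers stand above restricted progeroid livers for Crym.

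Of 9 measured thyroid hormone receptors and cofactors, 3 were lower in progeroid than in wild type livers on the control diet and 4 on restricted food, with none higher and with median changes of -0.27 and -0.19. Over all genes 4.32% were lower on the control diet and 5.44% on restricted food. With restriction 1 of the 9 rose and 1 fell in progeroid livers, where 6.94% of all genes rose and 5.07% fell. In wild type livers 2 rose and 1 fell, where 9.92% of all genes rose and 12.6% fell. Thrb, the main receptor isoform of hepatocytes, fell with restriction 1.35-fold in progeroid (-0.43 ± 0.11 SE, limma adjusted p = 0.0123) and 1.38-fold in wild type livers (-0.46 ± 0.11, adjusted p = 0.00390). Its means were 4.21 in restricted progeroid, 4.64 in progeroid control, 4.58 in restricted wild type and 5.04 in wild type control livers. The restricted progeroid values, 4.05 to 4.37, lay around the array median (4.17 to 4.21). There a signal is not shown to be above background, so these folds are not exact. The coactivator Ncoa2 was lower in progeroid livers on the control diet (-0.30 ± 0.08, adjusted p = 0.0144) and on restricted food (-0.36 ± 0.08, adjusted p = 0.00293). With the mean of its probe sets the control diet difference was -0.14 and did not pass (adjusted p = 0.344). Ncoa1 was lower on the control diet (-0.45 ± 0.10, adjusted p = 0.00655). It was also among the 4 lower on restricted food, at 7.37 ± 0.14 in progeroid and 7.68 ± 0.22 in wild type livers (SD). Ncoa3 was lower on restricted food (-0.48 ± 0.10, adjusted p = 0.00238). Thra, the other receptor gene, rose with restriction in progeroid livers (0.44 ± 0.14, adjusted p = 0.0439). That call was lost in 13 of 28 alternative fits. Thra was also 1 of the 2 that rose in wild type livers, where it averaged 6.26 ± 0.18 on restricted food and 5.79 ± 0.34 on the control diet (SD). That wild type call was not checked in the alternative fits. The cofactor Med1 rose with restriction in wild type livers (0.39 ± 0.10, adjusted p = 0.00710). With the mean of its probe sets that change was 0.17 and did not pass (adjusted p = 0.0908).

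Of 13 measured thyroid hormone responsive genes, the progeroid genotype lowered 1 on the control diet, and lowered 4 and raised 1 on restricted food, with median changes of -0.09 and -0.35. The shares of all genes were 4.32% lower on the control diet and 5.44% lower and 11.8% higher on restricted food. Thrsp, a lipogenic protein first known for its response to thyroid hormone, was 3.38-fold lower in progeroid than in wild type livers on restricted food (-1.76 ± 0.40 SE, limma adjusted p = 0.00380), with values of 10.84 to 12.21 and 12.99 to 13.39. On the control diet the difference was -1.20 ± 0.40 and missed the threshold (adjusted p = 0.0574), with progeroid livers ranging from 10.21 to 13.01. It passed without progeroid control animal 321 (-1.58, adjusted p = 0.00491), 327 (-1.35, adjusted p = 0.0488) or wild type control animal 403 (-1.34, adjusted p = 0.04998). Me1, malic enzyme, was 2.85-fold lower on restricted food (-1.51 ± 0.29, adjusted p = 0.00112). It was also the gene lowered on the control diet (-1.07 ± 0.29, adjusted p = 0.0209), a call lost in 6 of 28 alternative fits. The raised gene was Cpt1a, the carnitine palmitoyltransferase of fatty acid oxidation, 1.59-fold (0.67 ± 0.14, adjusted p = 0.00166).

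With restriction the same list split in wild type livers, with 3 genes higher and 1 lower, and 1 was lower in progeroid livers, beside the shares of all genes given above for restriction. Cyp7a1, the rate-limiting enzyme of bile acid synthesis, rose 6.06-fold in wild type livers (2.60 ± 0.47 SE, limma adjusted p = 0.000416). Bcl3, a transcriptional coregulator induced by thyroid hormone in liver, fell 1.93-fold in progeroid (-0.95 ± 0.14, adjusted p = 0.000215) and 1.65-fold in wild type livers (-0.72 ± 0.14, adjusted p = 0.000914). Median changes of the 13 genes with restriction were 0.03 in progeroid and 0.02 in wild type livers, beside -0.01 and -0.03 over all genes.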

How the data were processed

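Liver RNA from 20 mice was hybridised to Affymetrix arrays, 1 per animal. The deposited log2 values come from RMA run by the authors, per the submitters' processing notes, whose version was not given. RMA sets all arrays to 1 distribution, so a global shift would be removed. Of 45141 probe sets, 104 controls were left out. Names came from the platform annotation, checked by Entrez ID against RefSeq genes of GRCm38.p6 (28689 of 28898 probe sets with 1 symbol matched). Another 551 with several symbols and 15588 with none named no gene.

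Limma 3.58.1 in R 4.3.3 fitted 1 mean per group to all 20 arrays (16 residual degrees of freedom), with Benjamini-Hochberg adjustment within each contrast over 17097 genes, or over all probe sets where stated. All tests are two-sided. The 2 comparisons across both genotype and diet were added after the data were seen. The members, the gene lists and the alternatives were chosen with earlier results of these data known. Besides the members and Ercc1, named genes were Socs2 and Thrsp, the 2 of each list with the smallest adjusted p in each contrast among those past the threshold, and the 1 or 2 most correlated with each member. The fit was tested on simulated data. The number of arrays limits the precision.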

Additional observations from a re-analysis of the deposited data

Results flagged for a closer look

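Of 80 groups of 5 animals tested for the 20 probe sets, 5 held 1 animal far from the other 4 by Dixon's test, and chance flags about 1 in 20 groups. Progeroid control animal 321 had the lowest Ghr value of its group, 12.24 where the next was 12.36, and the lowest Igfals value, 8.46 where the next was 9.11. Progeroid control animal 327 had an Igfbp1 value of 10.58 where the next was 11.76. Restricted wild type animal 423 had an Igfbp2 value of 12.60 where the next was 12.24. Wild type control animal 402 had 8.44 at the Ghr probe set 1451871_PM_a_at where the next was 8.55. The diet effect on Crym differed between genotypes by -0.91 on the log2 scale (progeroid minus wild type, limma adjusted p = 0.0201).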

How the results depend on the processing

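The 9 genes in 5 contrasts gave 45 results, tested under 28 alternatives: leaving out each of 20 animals, and 8 others (median centring, mean of probe sets, no suffixed probe sets, a minimum mean of 5, array weights, trend and robust moderation, the compared groups alone, adjustment over probe sets). No direction of a called member reversed, and 37 results, among them 9 of the 14 calls, kept their side of the threshold in every alternative that could be run. Besides the animals named in the report, the Dio1 call for genotype on restricted food was lost with adjustment over probe sets (adjusted p = 0.0520), trend and robust moderation (0.0645) and the compared groups alone (0.112), the Igfals call for diet in progeroid livers with adjustment over probe sets (0.0510) and the compared groups alone (0.0661), and the Igfbp1 call for diet in wild type livers with the compared groups alone (0.0616) and trend and robust moderation (0.0751). The Igf1 change with diet in progeroid livers passed with array weights (0.0343), trend and robust moderation (0.0449) and the minimum mean (0.0475). Leaving out suffixed probe sets ended the call of Igf1 between restricted progeroid and wild type control livers (-0.15, adjusted p = 0.248), left 1 member past the threshold for genotype on the control diet (2 before), since it removes Ghr, and reversed Ercc1 for genotype (0.0203 on the control diet, 0.0155 on restricted food) and Pappa for genotype on restricted food (0.10). Leaving out 1 animal gave 103 to 490 genes for the difference of the diet effects (240 in the full fit, 363 with array weights) and 1 to 3 members for genotype on restricted food, with 1 left without restricted wild type animal 422. Among 52 results of other named genes 26 of 43 calls kept their side throughout; the cause of the changes was not tested. The difference of the diet effects cannot be fitted with the compared groups alone. No paired analysis was possible because the groups share no animal numbers.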
